A study of Homo sapiens with 4 samples.

Results

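The 40 genes described here are interferon-stimulated genes, out of 19970 protein-coding genes annotated on chromosomes 1 to 22 and X. They were chosen by name from what interferons are known to induce, with earlier results of these data known. ZNF217, a zinc finger transcription factor found in corepressor complexes, was mapped in untreated MV4-11 and U937 cells by CUT&Tag, in which an antibody brings a transposase to the protein and the DNA around it is tagged and sequenced. The study lists both among human acute myeloid leukemia cell lines, and both resemble monocytes. MV4-11 has a KMT2A fusion and U937 a PICALM fusion. Each line had 1 ZNF217 library, and the matching IgG libraries are not analysed here. Neither line was given interferon, so the peaks describe the resting state. There were no replicates against which to check a difference between lines, and a line and its library cannot be told apart.

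The ZNF217 lists held 37635 peaks in MV4-11 and 22521 in U937, given as hg38 positions with no height or count, so the depth is unknown. Widths below are the lengths of the called peaks, which depend on depth and peak calling and are not binding strengths. Of 8 myeloid marker genes, 7 had a ZNF217 peak at the promoter in MV4-11 and 4 in U937, and LYZ, which encodes lysozyme, had none in either line. Over all protein-coding genes the shares were 59% and 50.5%. Of 12 markers of T cells, B cells, erythroid cells and hepatocytes, 4 had one in MV4-11 and 1 in U937. These counts concern ZNF217 peaks and not expression.

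Cells that detect viral nucleic acid release interferons, which bind surface receptors and activate the JAK kinases. Type I interferon then assembles a transcription factor complex, with IRF9 as its DNA-binding part, at the interferon-stimulated response element (ISRE), a short sequence upstream of many of these genes. Interferon gamma acts mainly through a different element, GAS. The induced proteins sense, cut, edit or trap viral nucleic acids, block entry or budding of viruses, or limit the response itself, and cells of the monocyte lineage are among the strongest responders.

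A promoter peak is a peak that overlaps the window of 1 kb on each side of any annotated transcription start site (TSS) of a gene. In MV4-11, 23 of the 40 genes had one, a share of 57.5% with a 95% exact interval of 40.9% to 73.0%, beside 59% of all protein-coding genes. In U937, 19 of 40 did, or 47.5% (31.5% to 63.9%), beside 50.5% of all genes. Both shares were near those of all genes, so the number of occupied genes set the interferon-stimulated genes apart in neither line. The intervals cover counting error only and take the genes as independent, although neighbours in a cluster can share a peak.

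The shares of genes occupied in both lines, in 1 line or in neither were near those of all genes. The numbers depended on the start sites counted. In 18 of 40 genes (45%, beside 47.4% of all genes) both lines had a promoter peak. EIF2AK2, OAS2, GBP5, APOBEC3G and XAF1 had one in MV4-11 only (5 of 40, 12.5%, beside 11.6%), and GBP2 had one in U937 only (1 of 40, 2.5%, beside 3.1%). The other 16 genes (40%, beside 37.9%) had none in either line, namely IFIT1, IFIT2, IFIT3, IFIT5, OAS1, OAS3, GBP1, GBP3, GBP4, USP18, APOBEC3A, APOBEC3F, IFI27, IFI44, IFI44L and TRIM22. With the canonical TSS alone, 11 genes were occupied in both lines, 10 in MV4-11 only and 2 in U937 only. With windows of 500 bp the count for MV4-11 only was 8, and with the widest peaks of each line in equal number it was 2. The split between lines was not counted over all genes under these settings. These changes are therefore not shown to be particular to the 40 genes.

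**Figure D1:**
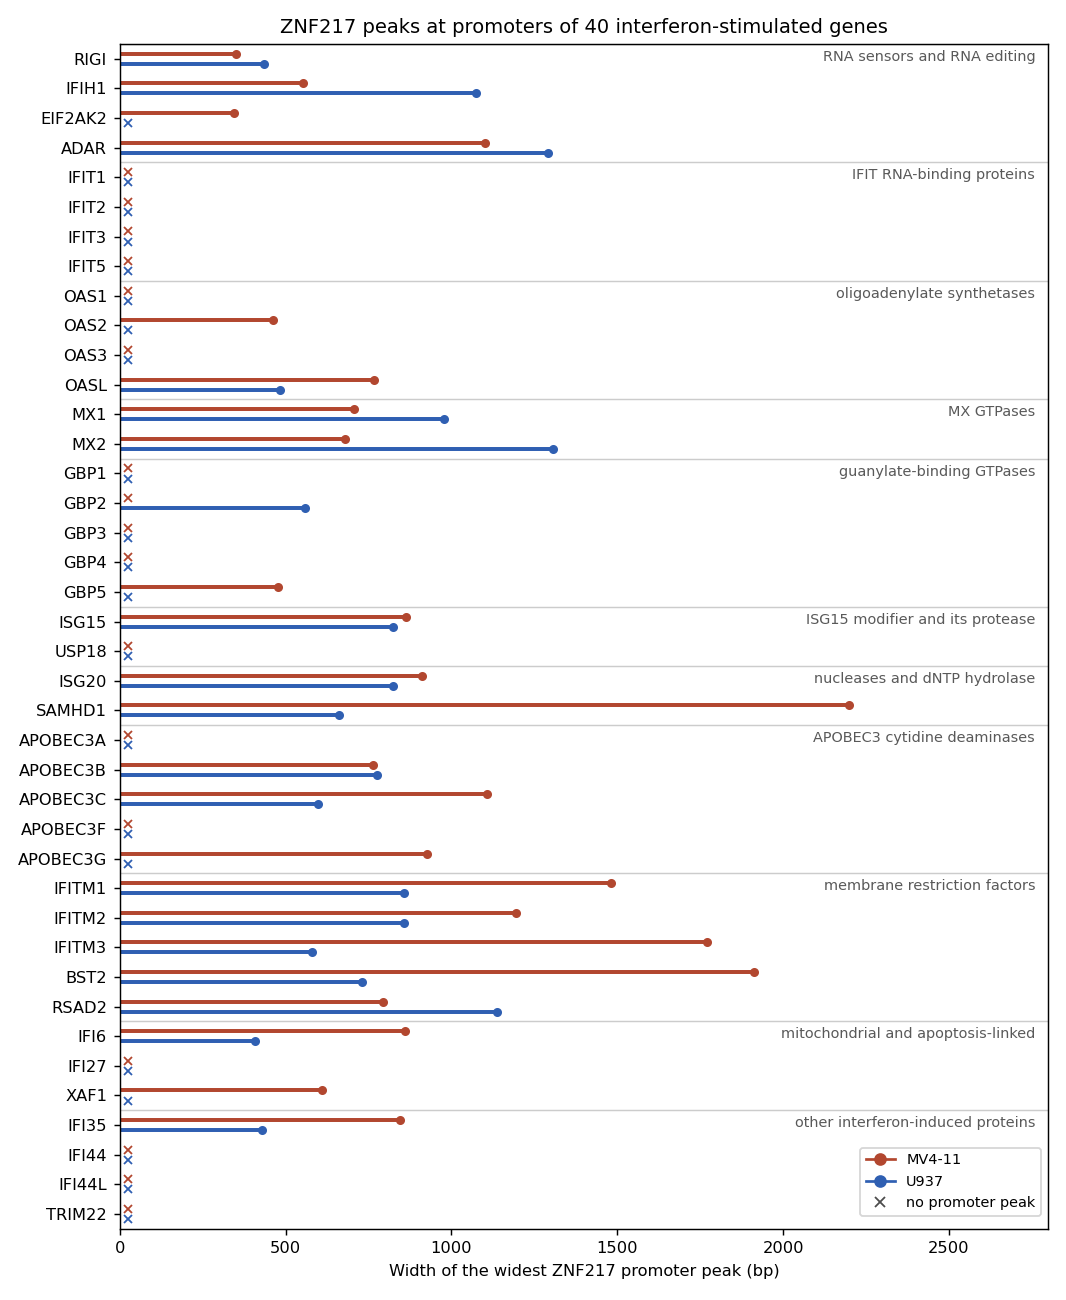
The widest ZNF217 promoter peak of each of the 40 interferon-stimulated genes (bp), by role, with MV4-11 in red, U937 in blue, a cross where a gene had no promoter peak and 1 library per line. MV4-11 widths ran from 346 to 2200 bp and U937 widths from 409 to 1307 bp, and all 4 IFIT genes carry crosses in both lines.

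Among the genes occupied in both lines, the peaks were not always at the same place. The promoter peaks of the lines overlapped by at least 1 bp at 14 of the 18 genes (77.8%, exact interval 52.4% to 93.6%), beside 98.1% of all genes with promoter peaks in both lines. The 4 exceptions were OASL, BST2, IFI35 and IFITM1. At OASL, BST2 and IFI35 the peaks lay at different start sites or on different sides of one. For IFITM1, the U937 peak overlapped an MV4-11 peak at IFITM2 by 684 bp. That MV4-11 peak lay outside the 1 kb window of IFITM1, so the overlap was not counted. The genes held a median of 8.5 annotated TSSs, beside 5 for all genes, so each offered more windows in which separate peaks could fall, and the part of this in the lower overlap was not tested.

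An ISRE core was far more common upstream of these genes than of genes in general. The core, GAAA, any 2 bases and GAAA again, on either strand, lay within 200 bases upstream of the Ensembl canonical TSS of 19 of the 40 genes (47.5%, exact interval 31.5% to 63.9%), beside 2.18% of all genes. Within 500 bases it was found at 24 of 40 (60%, beside 6.05%), and with a shorter core that drops the last base, within 200 bases, at 21 of 40 (52.5%, beside 4.67%). That enrichment is what this class of genes is known for, and a match is a description of letters and not of a bound site. ZNF217 peaks covered a core of 8 of these 19 genes in MV4-11 (42.1%, 20.3% to 66.5%), beside 35.1% of all genes with a core, and of 5 of 19 in U937 (26.3%, 9.15% to 51.2%), beside 26.6%. A promoter peak was present at 9 of the 19 genes in each line (47.4%), beside 45.9% of all genes with a core in MV4-11 and 41.1% in U937. Of the 21 genes without a core there, 14 had a promoter peak in MV4-11 (66.7%, 43.0% to 85.4%) and 10 in U937 (47.6%), beside 59.3% and 50.7% of all genes without one. The exact intervals of genes with and without the core overlapped in both lines, but with so few genes this does not show that the shares were alike. CpG-rich promoters (at least 50% GC and a CpG ratio of at least 0.6) made up 4 of the 19 with a core (21.1%, beside 38.3% of all genes with one) and 4 of the 21 without (19.0%, beside 65.4%).

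The upstream sequences of 7 genes are shown because they hold the same core in occupied and in unoccupied promoters. They are the hg38 reference, read 5′ to 3′ on the strand of the gene up to the base before the canonical TSS or the nearest annotated untranslated base, with the ISRE cores in capitals and all other bases in lower case. A core on the opposite strand reads TTTC, 2 bases and TTTC, and overlapping cores merge into a longer run of capitals. The first 4 genes were occupied in both lines, and the last 3 in neither. IFIH1 is at chr2:162318685-162318883 (minus strand, cores beginning at -159, -153 and -21 from the TSS), ISG15 at chr1:1013297-1013496 (plus strand, -113 and -107), IFITM3 at chr11:320861-321060 (minus strand, -52 and -35) and IFI6 at chr1:27672213-27672392 (minus strand, -156, -115 and -93). IFIT1 is at chr10:89392423-89392545 (plus strand, -116 and -103), IFIT2 at chr10:89301846-89301976 (plus strand, -108 and -95) and IFIT3 at chr10:89327797-89327940 (plus strand, -156 and -122).
IFIH1: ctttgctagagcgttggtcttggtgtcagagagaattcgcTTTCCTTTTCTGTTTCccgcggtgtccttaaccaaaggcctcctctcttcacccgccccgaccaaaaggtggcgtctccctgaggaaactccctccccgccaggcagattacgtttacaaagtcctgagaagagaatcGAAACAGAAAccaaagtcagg
ISG15: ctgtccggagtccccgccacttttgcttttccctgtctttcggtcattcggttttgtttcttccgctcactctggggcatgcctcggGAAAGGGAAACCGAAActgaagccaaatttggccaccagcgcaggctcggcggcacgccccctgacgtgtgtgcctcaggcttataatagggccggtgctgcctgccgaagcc
IFITM3: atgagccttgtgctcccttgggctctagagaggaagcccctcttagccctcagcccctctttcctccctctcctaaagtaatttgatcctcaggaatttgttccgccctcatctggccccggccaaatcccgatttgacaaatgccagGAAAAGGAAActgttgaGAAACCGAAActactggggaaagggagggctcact
IFI6: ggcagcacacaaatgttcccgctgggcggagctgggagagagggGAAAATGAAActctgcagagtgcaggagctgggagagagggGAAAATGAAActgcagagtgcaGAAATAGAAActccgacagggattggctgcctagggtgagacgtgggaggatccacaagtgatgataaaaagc
IFIT1: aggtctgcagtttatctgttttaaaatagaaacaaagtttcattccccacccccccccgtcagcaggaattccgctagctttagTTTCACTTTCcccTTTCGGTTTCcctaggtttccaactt
IFIT2: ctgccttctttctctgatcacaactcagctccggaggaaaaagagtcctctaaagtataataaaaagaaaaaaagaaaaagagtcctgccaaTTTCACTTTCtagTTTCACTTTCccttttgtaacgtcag
IFIT3: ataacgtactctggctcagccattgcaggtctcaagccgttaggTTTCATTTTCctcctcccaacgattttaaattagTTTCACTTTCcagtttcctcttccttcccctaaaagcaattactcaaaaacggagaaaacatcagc
All 3 cores of IFIH1, both of ISG15 and all 3 of IFI6 lay under a ZNF217 peak in each line. Both cores of IFITM3 lay under the MV4-11 peak and neither under a U937 peak. No base of the IFIT1, IFIT2 or IFIT3 stretches lay under a peak in either line, although each holds 2 cores.

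RIGI and IFIH1 encode sensors of viral RNA in the cytosol. At RIGI, the MV4-11 promoter peak was 352 bp wide and ended 87 bp short of the nearest start site, while the U937 peak was 434 bp wide and covered a start site. The 2 peaks overlapped by 103 bp. At IFIH1, the MV4-11 peak of 552 bp lay wholly within the U937 peak of 1074 bp, and both also covered a start site of the divergent neighbour GCA. ADAR, which edits adenosine to inosine in RNA, had 2 promoter peaks in each line at separate groups of start sites, and the widest measured 1101 bp (MV4-11) and 1292 bp (U937). EIF2AK2, the RNA-activated kinase PKR, had a 346 bp peak in MV4-11, the narrowest promoter peak of any of the 23 occupied genes when the widest of each gene is taken, and its nearest U937 peak was 24.9 kb away. All 4 genes of this group had CpG-rich promoters, which only 4 of the other 36 did.

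The IFIT genes encode proteins that bind foreign RNA and hold back its translation. None of IFIT1, IFIT2, IFIT3 and IFIT5 had a promoter peak or any peak assigned to it by nearest TSS. The nearest peaks lay 251, 196, 240 and 223 kb away in MV4-11 and 140, 31.6, 75.2 and 163 kb away in U937, in that order of genes. All 4 hold an ISRE core upstream.

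The oligoadenylate synthetases make the messenger that activates RNase L, which degrades RNA. OAS2 had a 463 bp peak over its start site in MV4-11, and the nearest U937 peak was 37.5 kb away. OAS1 had no peak within 62.7 kb in MV4-11 or 125 kb in U937. OAS3 was 9999 bp from the nearest MV4-11 peak and 72.5 kb from the nearest U937 peak. OASL, which lies outside that cluster and encodes a family member without synthetase activity, had a 768 bp peak over its start site in MV4-11. In U937 its 483 bp peak lay within the gene, 5427 to 5909 bp downstream of the canonical TSS and 695 bp from the nearest annotated start site.

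MX1 and MX2 encode GTPases that block early steps of viral infection, and both were occupied in both lines by overlapping peaks. The MX1 peak, at start sites upstream of the canonical TSS, measured 705 bp (MV4-11) and 978 bp (U937). MX2 had 4 nearest-TSS peaks in MV4-11 and 3 in U937, with widest promoter peaks of 680 and 1307 bp. Of these, 3 of the 4 in MV4-11 and all 3 in U937 were shared between the lines.

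The guanylate-binding proteins are GTPases that attack vacuoles holding pathogens and are induced strongly by interferon gamma. GBP5 had a 478 bp peak over its start site in MV4-11 and a 777 bp exonic peak, and its nearest U937 peak was 135 kb away. GBP2 shows how the 1 kb limit assigns a gene: its intronic peaks, 463 bp (MV4-11) and 558 bp (U937), overlapped by 407 bp, but the U937 peak began 962 bp from a start site and the MV4-11 peak 1113 bp. GBP2 was therefore counted in U937 only although the peaks overlapped. GBP1, GBP3 and GBP4 had no assigned peak, with gaps of 61.9, 18.5 and 57.7 kb in MV4-11 and of 61.7, 18.5 and 57.8 kb in U937.

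ISG15 is a ubiquitin-like protein attached to other proteins, and USP18 removes it and also dampens signalling at the type I receptor. The promoter peaks of ISG15 measured 863 bp (MV4-11) and 824 bp (U937) and overlapped by 768 bp over the canonical TSS. A further U937 peak of 635 bp lay at an upstream start site, near the neighbouring gene HES4. USP18 had 1 peak in each line outside the promoter window, 4.79 kb from a start site in MV4-11 and 1.83 kb in U937, and they did not overlap. It holds ISRE cores upstream, at -110 and -91.

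ISG20 encodes an RNA exonuclease, and SAMHD1 an enzyme that depletes the dNTPs viruses need. At ISG20 the promoter peaks, 911 bp (MV4-11) and 824 bp (U937), overlapped, as did an intronic pair. SAMHD1 had the widest promoter peak of the 40 genes in MV4-11, 2200 bp, and a 660 bp peak in U937, of which 640 bp lay in the MV4-11 peak. It was also among the genes with most peaks, 4 in MV4-11 and 3 in U937.

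The APOBEC3 enzymes deaminate cytosine in viral DNA. APOBEC3B had promoter peaks of nearly equal width, 765 bp (MV4-11) and 776 bp (U937), overlapping by 727 bp. At APOBEC3C the peaks were 1107 and 598 bp wide and overlapped by 566 bp. APOBEC3G had a 925 bp peak in MV4-11, with the nearest U937 peak 55.7 kb away. APOBEC3A and APOBEC3F had no promoter peak. The intergenic peak nearest to APOBEC3A, 10035 bp from its start site in MV4-11 and 9656 bp in U937, was present in both lines with widths of 490 and 1184 bp.

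IFITM1, IFITM2 and IFITM3 encode membrane proteins that hinder viral entry, BST2 (tetherin) holds budding virions at the cell surface, and RSAD2 (viperin) makes a nucleotide that stops viral polymerases. This was the only role group of 3 or more genes in which every gene was occupied in both lines, beside 47.4% of all genes. The positions differed, and the count depended on the start sites used. With the canonical TSS alone, IFITM2 was the only gene of this group with a U937 promoter peak. In MV4-11 the widest promoter peaks of IFITM1, IFITM2 and IFITM3 were 1480, 1195 and 1772 bp and covered the canonical TSS of each. In U937, a single 858 bp peak served both IFITM1 and IFITM2, lying 949 bp from the nearest IFITM1 start site, and the 581 bp peak at IFITM3 lay at -6233 to -5653 from its canonical TSS. BST2 had a 1911 bp peak in MV4-11 that covered its start site and that of the divergent MVB12A, and a 730 bp peak in U937 within the gene that did not overlap it. RSAD2 had 3 promoter peaks in MV4-11, the widest 794 bp. Of these, a 516 bp peak covered a start site of CMPK2 and none of RSAD2. In U937, RSAD2 had 1 promoter peak of 1137 bp at start sites far upstream of the canonical TSS, next to CMPK2. Only MV4-11 had a peak near the canonical TSS of RSAD2, and this was 328 bp wide.

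IFI6 and IFI27 encode small hydrophobic proteins linked to survival or death of the cell, and XAF1 promotes apoptosis. IFI6 had the most peaks of the 40 genes, 5 in MV4-11 and 6 in U937, and 5 in each line were shared. The widest was not at the promoter but intergenic, chr1:27658648-27660910 in MV4-11 (2262 bp), and contained the whole U937 peak chr1:27658881-27660511 (1630 bp). Their midpoints lay 12399 and 12482 bp downstream of the IFI6 start site, where the promoter peaks were 861 and 409 bp. XAF1 had a 610 bp peak over its start site in MV4-11, and the only U937 peak assigned to it, 342 bp, lay 2.24 kb from a start site within a wider MV4-11 peak of 1323 bp. IFI27 had no assigned peak, with gaps of 5.72 kb in MV4-11 and 23.6 kb in U937.

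Of the remaining genes, IFI35, whose product takes part in innate signalling, had promoter peaks at different start sites, 845 and 536 bp wide in MV4-11 against 429 bp in U937. IFI44 and IFI44L, adjacent on chromosome 1, lay farthest from any peak in both lines, at 670 and 640 kb in U937 and 372 and 342 kb in MV4-11. TRIM22, an antiviral ubiquitin ligase, was 4.51 kb from the nearest MV4-11 peak and 408 kb from the nearest U937 peak.

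**Figure D2:**
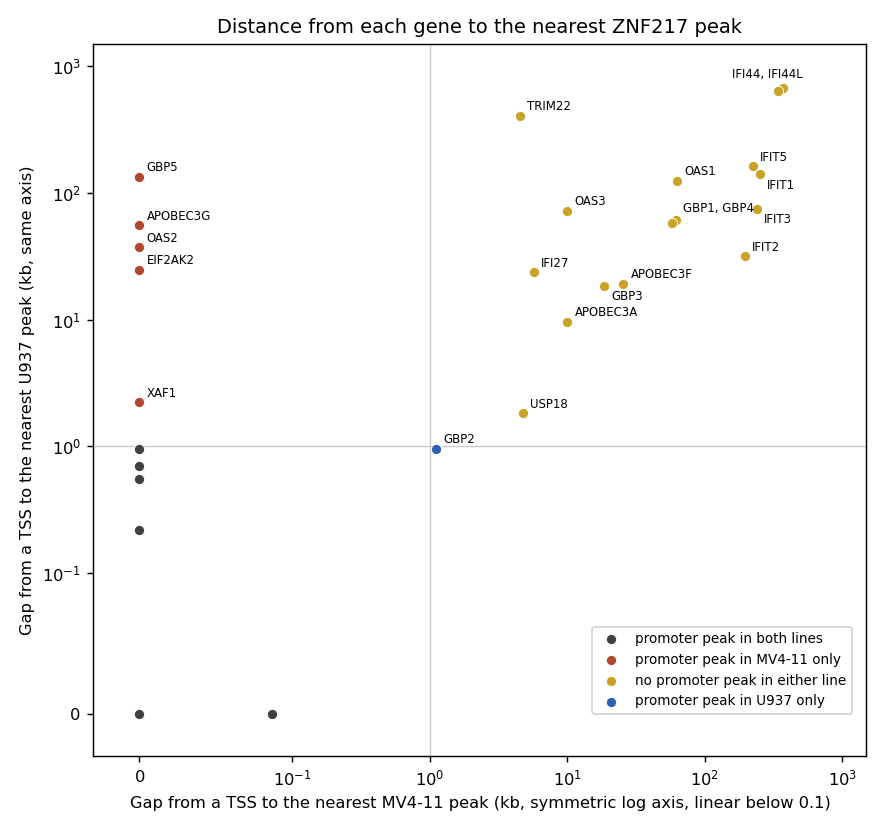
Gap in kb from the nearest TSS of each of the 40 genes to the nearest ZNF217 peak of MV4-11 (x axis) and of U937 (y axis), on symmetric log axes that are linear below 0.1 kb, with lines at 1 kb and colours for the line or lines with a promoter peak. The 16 genes without a promoter peak run from TRIM22 at 4.51 kb to IFI44 at 372 kb on the MV4-11 axis and from USP18 at 1.83 kb to IFI44 at 670 kb on the U937 axis, and points at 0 lie over one another.

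The spread of gaps among the 16 unoccupied genes was wide. USP18, IFI27, TRIM22, OAS3, APOBEC3A, GBP3 and APOBEC3F were within 20 kb of a peak in at least 1 line. The IFIT genes, IFI44 and IFI44L were more than 100 kb from the nearest MV4-11 peak. USP18 and APOBEC3A were the only unoccupied genes with an assigned peak in either line.

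The promoters of these genes differ in base composition from most promoters, and this bears on the comparison with all genes. A promoter was counted as CpG-rich when the 1001 bp around the canonical TSS had at least 50% GC and an observed to expected CpG ratio of at least 0.6. Of the 40 genes, 8 were CpG-rich (20%), beside 64.9% of all genes, and the median CpG ratio was 0.277 beside 0.725. Among CpG-poor promoters, 17 of 32 interferon-stimulated genes had a promoter peak in MV4-11 (53.1%, exact interval 34.7% to 70.9%), beside 28.9% of all CpG-poor genes. In U937, 14 of 32 did (43.8%, 26.4% to 62.3%), beside 20.5%. Among CpG-rich promoters the counts were 6 of 8 in MV4-11 (75%, beside 75.3%) and 5 of 8 in U937 (62.5%, beside 66.8%). Both lines had a peak at 5 of the 8 (62.5%, beside 63.4%) and at 13 of the 32 CpG-poor genes (40.6%, 23.7% to 59.4%, beside 17.9%). Within the CpG-poor class the shares thus lay above that of all such genes, with an interval that left it out, in each line.

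All CpG-poor genes held a median of 3 annotated TSSs, beside 8.5 for the 40 genes, so the counts were repeated at a single start site. With the canonical TSS of each gene alone, 16 of 32 CpG-poor genes were occupied in MV4-11 (50%, 31.9% to 68.1%), beside 22% of all CpG-poor genes. In U937, 9 of 32 were (28.1%, 13.7% to 46.7%), beside 14.9%, and this interval included the share of all such genes. The CpG-rich counts were 5 of 8 (beside 72.4%) and 4 of 8 (beside 63.7%). Over all 40 genes and the canonical TSS, the counts were 21 in MV4-11 (52.5%, beside 54.7%) and 13 in U937 (32.5%, 18.6% to 49.1%, beside 46.5%).

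**Figure D3:**
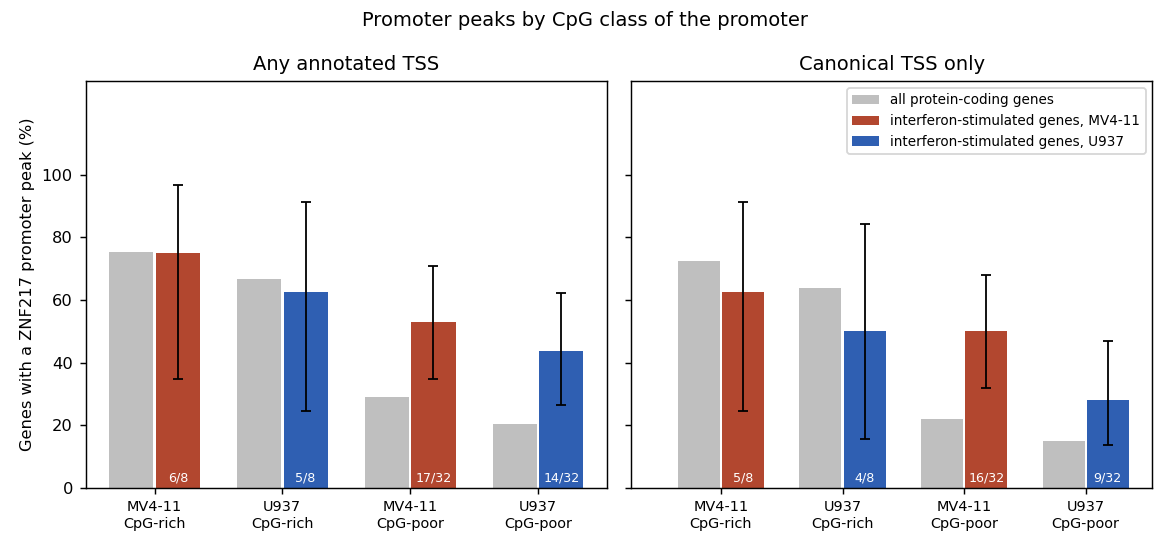
Share (%) of genes with a ZNF217 promoter peak, by CpG class and line, at any annotated TSS (left) and at the canonical TSS (right). Grey bars are all protein-coding genes, coloured bars the interferon-stimulated genes with their 95% exact intervals of counting error and their counts. In the CpG-poor class the coloured bars stand above the grey in each panel, with 17 of 32 in MV4-11 and 14 of 32 in U937 on the left. On the right the counts are 16 of 32 and 9 of 32, and the U937 interval there includes the grey share.

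The median width of the widest promoter peak was 845 bp over the 23 genes occupied in MV4-11, beside 1084 bp over all occupied genes, and 776 bp over the 19 in U937, beside 979 bp. Within the CpG-poor class the medians were closer, 861 bp beside 894 bp in MV4-11 and 753 bp beside 845 bp in U937. Over the 6 CpG-rich genes occupied in MV4-11 the median was 628.5 bp beside 1120 bp, and over the 5 in U937 it was 978 bp beside 1003 bp. In all, 31 separate promoter peaks belonged to the genes in MV4-11, of which 26 covered a start site of a listed gene, and 21 in U937, of which 16 did.

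**Figure D4:**
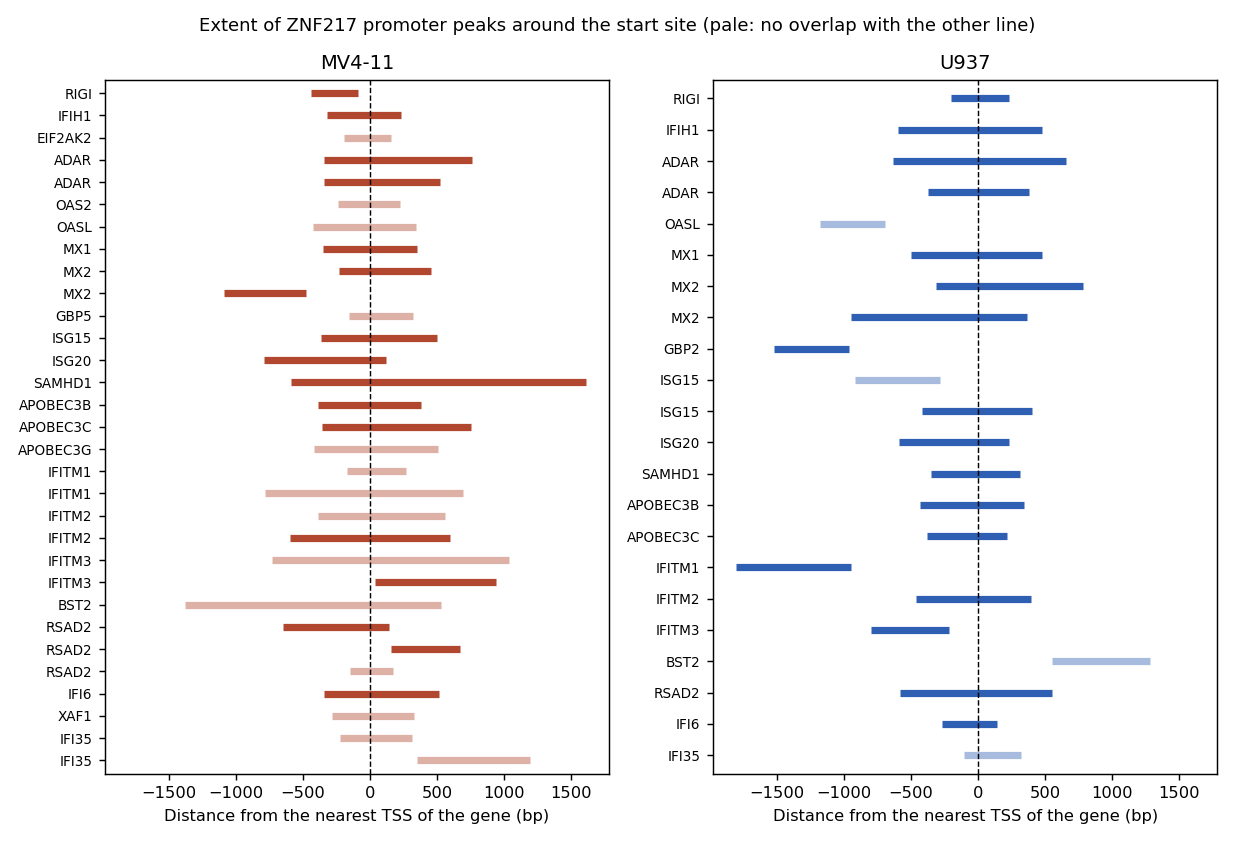
Extent in bp of each promoter peak of the 40 genes relative to the start site of that gene nearest to the peak midpoint (dashed line, transcription to the right), in MV4-11 and U937, with unshared peaks in pale colour. Most bars cross the start site, and in U937 those of OASL, GBP2, IFITM1, IFITM3 and BST2 and 1 of 2 at ISG15 lie to one side.

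Motifs were also searched on both strands in the central 300 bp of the promoter peaks, 31 for these genes in MV4-11 and 21 in U937. The ISRE core was in 6 of 31 peaks in MV4-11 (19.4%, exact interval 7.45% to 37.5%), beside 2.12% of the promoter peaks of all genes. In U937 it was in 5 of 21 (23.8%, 8.22% to 47.2%), beside 1.86%. Because 47.5% of these genes hold the core upstream, beside 2.18% of all genes, these shares do not separate the peaks from the choice of genes. The ETS-IRF composite core (GGAA, any 2 bases, GAAA), which shares letters with the ISRE core and is bound in myeloid cells by SPI1 with IRF partners, was in 3 of 31 (9.68%, 2.04% to 25.8%, beside 2.4%) and 4 of 21 (19.0%, 5.45% to 41.9%, beside 2.32%). The core of the ZNF217 motif, ACAGAA or GCAGAA, was in 7 of 31 (22.6%, beside 26.9%) and 6 of 21 (28.6%, beside 26%), near its share in all promoter peaks. The ETS core GGAAGT was in 8 of 31 (25.8%, beside 22.5%) and 6 of 21 (28.6%, beside 24%). The GAS core (TTC, any 3 bases, GAA) was in 3 of 31 (9.68%, beside 5.16%) and 1 of 21 (4.76%, beside 4.97%), with intervals that included the share of all promoter peaks.

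Some promoter peaks covered start sites of more than 1 gene, 4 of 31 in MV4-11 (12.9%, beside 11.4% of all promoter peaks) and 4 of 21 in U937 (19.0%, beside 12.8%). They lay at IFIH1 with GCA, at IFITM2 and at APOBEC3C with readthrough genes that span their neighbours, at BST2 with MVB12A in MV4-11, and at RSAD2 with CMPK2, an interferon-induced kinase gene, in U937. For these peaks the position does not say which gene of the pair they belong to.

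When every peak was given to its closest TSS, up to 100 kb away, the 40 genes received 51 peaks in MV4-11 and 34 in U937, a mean of 1.27 and 0.85 per gene beside 1.72 and 1.03 over all genes, with a median of 1 throughout. At least 1 such peak was assigned to 25 of 40 genes in MV4-11 (62.5%, beside 63.2%) and to 21 of 40 in U937 (52.5%, beside 53.9%). Of the 51, 27 overlapped a U937 peak (52.9%, Wilson interval 39.5% to 65.9%), beside 41.4% of peaks assigned to all genes. Of the 34, 28 overlapped an MV4-11 peak (82.4%, 66.5% to 91.7%), beside 70.3%. Both intervals included the share of all assigned peaks. Outside the promoter windows, the genes had 23 peaks in MV4-11, of which 12 were shared, 11 intergenic and 9 intronic, and 14 in U937, of which 11 were shared, 7 intergenic and 5 intronic.

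Clusters of these genes were also examined as 5 loci, taken from the first to the last gene with 20 kb on each side and with family members outside the 40 included. The IFIT locus on chromosome 10, with IFIT1B and 177.9 kb long, held no peak in either line. The stretch free of peaks around it ran for 556 kb in MV4-11 and 384 kb in U937, and 2.72% and 7.52% of all gaps between neighbouring peaks were longer. The gene LIPA is annotated across most of the IFIT locus on the other strand. The 1 Mb centred on the locus held 5 MV4-11 and 7 U937 peaks, which is 0.5 and 0.7 per 100 kb beside 1.20 and 0.717 for the genome. That window includes the stretch free of peaks, so these densities do not describe the rest of the neighbourhood.

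The OAS locus on chromosome 12 (OAS1, OAS3 and OAS2) held the single OAS2 peak in MV4-11 and none in U937, where 523 kb around it were free of peaks. The GBP locus on chromosome 1, 421 kb with GBP6 and GBP7 included, held 4 peaks in MV4-11 and 2 in U937. One peak in each line lay at the promoter of the flanking genes KYAT3 and RBMXL1, which leaves 3 and 1 between the outermost GBP genes. GBP6 and GBP7 had no promoter peak in either line.

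The IFITM locus near the end of the short arm of chromosome 11 was the densest in MV4-11. Its 71.3 kb, with IFITM5 included, held 17 peaks in MV4-11 and 2 in U937, and both U937 peaks overlapped an MV4-11 peak. That is 23.9 and 2.81 peaks per 100 kb. The region around it was dense as well, with 93 MV4-11 and 30 U937 peaks in the surrounding window of 814 kb, cut short by the chromosome end, or 11.4 and 3.69 per 100 kb. The locus thus stood above its surroundings in MV4-11 and below them in U937. The MV4-11 peaks covered 19.7% of the locus and the U937 peaks 2.02%, and 9 and 2 lay between the ends of the IFITM genes. With the lists cut to equal numbers of the widest peaks, 11 MV4-11 peaks remained.

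The APOBEC3 locus on chromosome 22, 191 kb with APOBEC3D and APOBEC3H included, held 5 peaks in MV4-11 and 4 in U937, 3 of them shared. This is 2.61 and 2.09 per 100 kb, above the genome but below the 1 Mb centred on it, which held 6.7 and 4 per 100 kb. APOBEC3H had a 423 bp peak over its start site in MV4-11 alone, and a 537 bp peak at the start of APOBEC3D was listed in U937 alone. These clusters thus ranged from no peak in both lines at the IFIT genes to similar numbers in both at the APOBEC3 genes and unequal numbers at the IFITM genes.

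**Figure D5:**
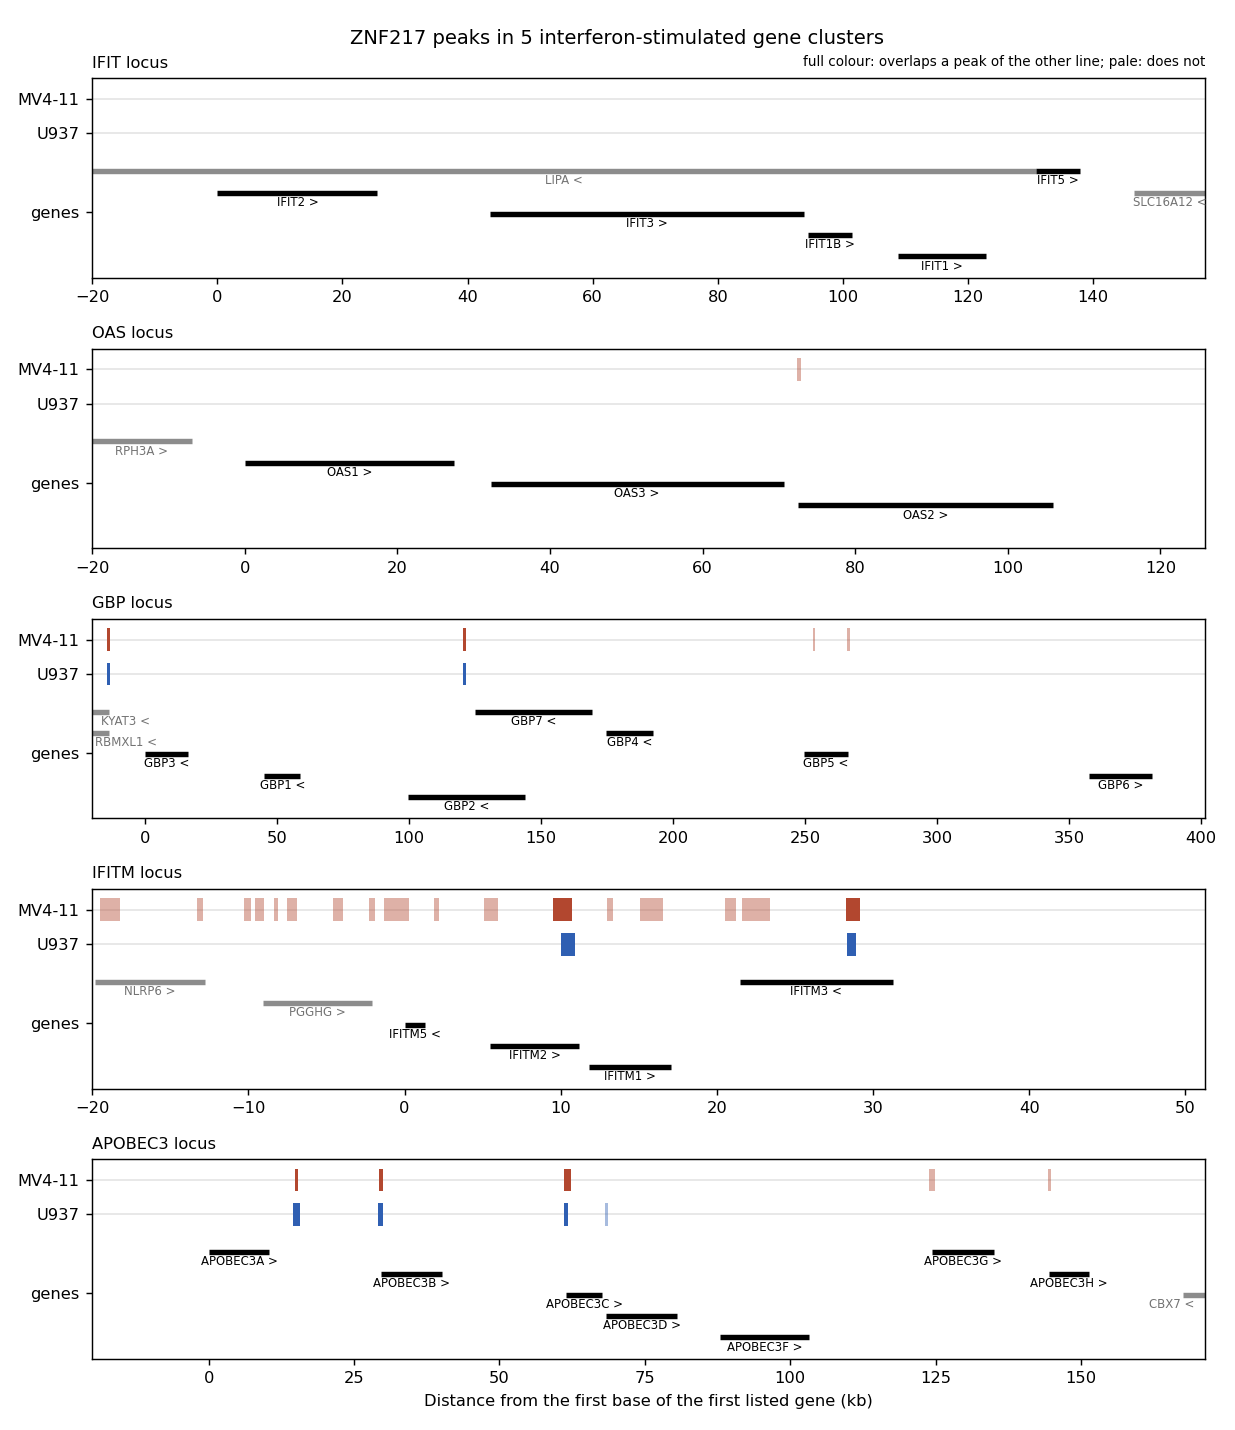
ZNF217 peaks of MV4-11 (red) and U937 (blue) across the IFIT, OAS, GBP, IFITM and APOBEC3 loci, with position in kb from the first base of the first listed gene, genes as bars with their strand (listed family members black, others grey) and unshared peaks in pale colour. The IFIT panel is empty of peaks, and the IFITM panel has 17 in MV4-11 and 2 in U937, with very narrow peaks widened to stay visible.

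The upstream pathway was described with a list of 53 other genes, of which 30 had a promoter peak in MV4-11 (beside 59% of all genes) and 23 in U937 (beside 50.5%), the 23 being common to both lines. The counts by role that follow are small and are to be read beside the same shares. Of 17 type I interferon genes (IFNB1, the IFNA genes, IFNW1, IFNE and IFNK), only IFNA2 was occupied, by a 355 bp peak in MV4-11, and none was in U937. IFNG and the type III genes IFNL1, IFNL2 and IFNL3 had none in either line. The receptors were occupied, 6 of 6 in MV4-11 and 5 of 6 in U937, where IFNLR1 had none. The type I receptor subunits IFNAR1 and IFNAR2 had widest promoter peaks of 1153 and 1917 bp in MV4-11 and 964 and 1426 bp in U937. The kinase genes JAK1 and JAK2 were occupied in both lines. Of 14 genes for nucleic acid sensing and its adaptors, 11 in MV4-11 and 8 in U937 were occupied, among them MAVS and CGAS in both. TLR3, TLR7 and TLR8 had no promoter peak in either line, and TICAM1, TLR9 and ZBP1 had none in U937. All 6 negative regulators were occupied in MV4-11 and 4 in U937, among them SOCS1 and SOCS3 in both, and PTPN1 and PTPN2 had no U937 promoter peak.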

How the data were processed

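The sample titles gave 4 groups of 1 library, and the 2 ZNF217 peak lists were used. Per the labels and the methods of the study, the authors aligned reads to hg38 with Bowtie2 2.4.4 and called peaks in each library with MACS3 3.0 in paired-end mode at a q-value of 0.01. Use of IgG as control, removal of duplicates and blacklisting were not given in the sources used here. The deposited values are of a unit other than signal: chromosome, start and end of each peak, without score or count, with an uncertainty of 1 bp in the start. Depth is unknown.

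Peaks on chromosomes 1 to 22 and X (36356 in MV4-11, 21737 in U937) were compared with GENCODE 44. A peak was shared if a peak of the other line overlapped it by at least 1 bp. All 40 members are accounted for and named. Pathway genes were named where 1 line or both lacked a promoter peak, with 2 occupied examples per role in list order, and 1 role is not reported here by its count. Sequences were printed in list order for up to 4 members with a core occupied in both lines, 2 in 1 line only and 3 in neither, and no member of 1 line alone qualified. Stretches not free of annotated untranslated bases were passed over, such as those of ADAR and ISG20. The members and lists were chosen with earlier results of these data known. No p-value was calculated, and 95% exact or Wilson intervals cover counting error only. Counting was tested on simulated data. pysam 0.24.0, samtools 1.23.1, SciPy 1.17.1, Python 3.11.15, pandas 2.3.3, NumPy 2.4.6 and Matplotlib 3.10.9 were used. Alternatives were other promoter windows (500 bp, 3 kb), 1 TSS per gene, peaks of at least 400 bp, lists of equal length, merging, other overlaps, distances and locus borders, and other ISRE definitions.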

Additional observations from a re-analysis of the deposited data

How the results depend on the processing

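The main counts, widths, shares and locus totals were recomputed under 66 alternatives, and 61 stayed within their limit, 1.5 times for a count and the interval for a share. With 1 TSS per gene, 11 genes were occupied in both lines, a count not made over all genes. With the widest peaks of each line in equal number (21737), 61.8% of the assigned U937 peaks were shared and the loci held 16 MV4-11 peaks. With a reciprocal overlap of at least 50%, 39.2% of assigned peaks were shared in MV4-11 and 61.8% in U937. Of 52 values for single loci and for genes occupied in 1 line only, 14 moved, and none had a sign to turn. No paired analysis was possible because each line had 1 library, and for the same reason no replicate could be left out. Peaks without scores allow no stricter threshold, and the absence of a peak is not shown to be absence of ZNF217 at an unknown depth.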
